A study of Capra hircus with 11 samples.

Results

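The cells compared here were goat (Capra hircus) ear fibroblasts kept for 4 or for 8 days in a chemical induction medium named BFRTV. The comparison covers the later stretch of an induction meant to turn fibroblasts into mammary epithelial cells. Both groups started from the same kind of cell, were grown on Matrigel, received the induction medium the day after seeding and had it renewed every 2 days, and by the labels they differ in the days of induction. The labels list 3 samples at day 4 (BFRTV4d) and 2 at day 8 (BFRTV8d, labelled as an induced mammary epithelial cell), whereas the series' design text gives 3 for BFRTV8d. The sources used here do not give the breed, age or number of the animals, and the letters of BFRTV are not explained here. Each group was deposited as 1 pooled table of UMI counts, a UMI being a tag that marks 1 captured transcript, and the cell barcodes carry no sample name. The samples of a group cannot be separated, so each group was treated as 1 library. There was no replicate to compare and no significance test, and library and day cannot be told apart. Every ratio below compares these 2 tables, and the 95% interval in parentheses after it covers counting error only.

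The tables hold 10203 and 10152 barcodes, together 20355 of the 41854 of the series, with 106750380 and 103337253 UMIs and medians of 9665 and 9089 UMIs per barcode. Each gene's UMIs were added up over the whole table and expressed per 1e+06 UMIs of that table (CPM). The genes compared are the 8469 of 15826 that reached 10 CPM in either table. Of these, 635 lay just inside the limit, at 10 to 12 CPM in the higher table, and 725 others just outside it, at 8 to 10 CPM. Both tables list every compared gene. The 10 most abundant genes took 26.7% of the UMIs of BFRTV4d and 18.3% of those of BFRTV8d, and 143 barcodes (1.40% and 1.41%) occur in both tables. TPT1 has 2 rows, and the row with more UMIs was used. How the counting divided reads among near-identical copies, such as the keratins KRT6A, KRT14 and KRT17, the MX and IFIT families and ferritin or thymosin pseudogenes, could not be checked, so the values of these genes are uncertain in that respect.

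A fibroblast is a mesenchymal cell that secretes collagen and contracts through smooth muscle type actin and myosin, whereas a mammary epithelial cell lies in a sheet held together by cadherins, claudins and desmosomes, and carries keratins, with KRT5 and KRT14 in the basal layer and KRT8, KRT18 and KRT19 in the luminal layer that makes milk. Interferons are signal proteins of antiviral defence. Type I interferon receptors act through JAK kinases and transcription factors that switch on a broad set of effector genes, which block viral replication.

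In BFRTV8d, 903 of the 8469 genes (10.7%) were at least 2-fold higher than in BFRTV4d and 601 (7.1%) at least 2-fold lower. At a limit of 4-fold, 191 genes (2.26%) were higher and 213 (2.52%) lower. The median over all genes compared was 0.12 as log2 of the ratio BFRTV8d over BFRTV4d, and the medians of gene lists below are on the same scale and stand beside that value. The median-of-ratios scaling takes 0.12 off every log2 ratio and totals without the 10 most abundant genes take off 0.14, so a list median within about that distance of 0 has no settled sign. Among the genes compared, interferon-stimulated genes, milk and mucosal secretion genes, junction genes and early response genes were higher as groups. Collagens and other matrix genes, contractile genes and cell cycle genes were lower. Of the 15 highest ratios among genes with a symbol that reached 50 CPM in either table, 10 belonged to the interferon effector list, genes with only a LOC number being left out.

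The make-up of the tables differed, and most groups have to be read beside it. Clustering of both tables together gave 15 clusters, in each of which the table with fewer cells had at most 45. Clusters were grouped by the summed CPM of the epithelial and the fibroblast marker lists. Genes of these lists, such as COL1A1, PRRX1, CLDN4, KRT5 and KRT14, define the sets, so their contrast between the sets is built in. Cells rich in epithelial markers are called keratin-high. The leading genes of 1 of their clusters, cluster 5 of BFRTV4d, include the neuronal marker STMN2, so that the name epithelial was not given to the set. No cluster had a gene of the epithelial marker list among its leading genes, and the epithelial sum of cluster 5 was 79.8% of that of the highest cluster. Keratin-high cells were 4700 of 10203 in BFRTV4d (46.1%, 45.1 to 47), in clusters 5, 6, 7 and 9, and 9633 of 10152 in BFRTV8d (94.9%, 94.4 to 95.3), in clusters 1, 2, 3, 4, 11 and 14. Collagen-high cells were 4551 in BFRTV4d (44.6%, 43.6 to 45.6), in clusters 0 and 12, and 46 in BFRTV8d (0.453%, 0.332 to 0.604). The marker limits behind these sets were chosen after the data were seen. A gate that needs no clusters, more UMIs of epithelial than of fibroblast markers in a cell, was met by 51.5% of cells in BFRTV4d and 96.3% in BFRTV8d, and 3.54% and 0.522% of cells lay near equality.

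The remaining cells, 952 in BFRTV4d (9.33%) and 473 in BFRTV8d (4.66%), carried both marker sets and were left unnamed. They were deeper than the others, with medians of 14923.5 and 13474 UMIs against 9419.5 and 8944 in the keratin-high cells, and 44.5% and 13.1% of them lay over a doublet score limit. That limit was set in BFRTV4d and used for both tables, because in BFRTV8d the doublet caller marked no cell. Of the unnamed cells of BFRTV8d, 449 formed cluster 10, led by the retinoic acid binding protein gene CRABP1, and its fibroblast markers summed to 6605 CPM against 8445 CPM in cluster 0. In sums over a table, fewer cells of a type and less RNA per cell of that type cannot be told apart, so ratios within keratin-high cells are given beside those of the whole tables.

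**Figure D1:**
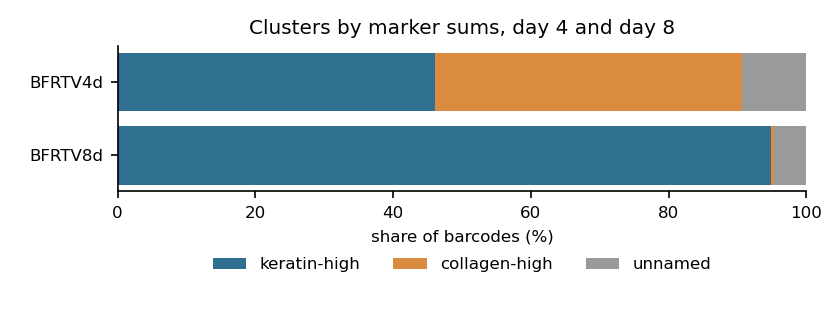
Share of barcodes (%) in BFRTV4d and BFRTV8d that fell into keratin-high, collagen-high and unnamed clusters, as stacked bars from 0. Keratin-high cells take 46.1% of the day 4 bar and 94.9% of the day 8 bar, and collagen-high cells 44.6% and 0.453%.

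Interferon-stimulated effectors were the group with the highest median. Of 46 genes listed, 31 have rows in these tables and 30 reached 10 CPM, TNFSF10 being the one that did not, and the other 15 were not analysed here. In BFRTV8d, 27 of the 30 were 2-fold higher or more, 19 of them 4-fold or more, none was 2-fold lower, and the median log2 ratio was 3.11. The summed level of the list was 419 CPM in the starting fibroblasts (BFRTV0d), 578 CPM in BFRTV4d and 9402 CPM in BFRTV8d. The list was thus near its starting level after 4 days, and high at day 8. Of the summed level at day 8, 6707 CPM belonged to IFI6 alone.

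ISG15, a ubiquitin-like protein that is linked to other proteins during the antiviral response, stood at 2.67 CPM in BFRTV4d and 369.98 CPM in BFRTV8d and was 139-fold higher (123 to 156). Its level in BFRTV0d was 26 CPM, above that of BFRTV4d. RSAD2, which encodes the antiviral enzyme viperin, had 0.749 CPM in BFRTV4d and 102 CPM in BFRTV8d, 136-fold higher (109 to 171). IFI6, a small membrane protein of the interferon response, had 229 CPM in BFRTV4d and 6707 CPM in BFRTV8d, 29.3-fold higher (29 to 29.7). All 3 were named because their ratios were among the highest, and their intervals cover counting error only.

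The GTPases that trap viral nucleoprotein were both higher. MX1 stood at 16.4 CPM in BFRTV4d and 258 CPM in BFRTV8d (15.7-fold higher, 15 to 16.5) and MX2 at 5.96 CPM in BFRTV4d and 121 CPM in BFRTV8d (20.3-fold higher, 18.7 to 22). In BFRTV0d the levels were 30.3 and 0.434 CPM, so that MX1 was lower in BFRTV4d than at the start and MX2 was not. IFIT3, of a family of proteins induced by viral infection, had 5.9 CPM in BFRTV4d and 109.8 CPM in BFRTV8d (18.6-fold higher, 17.2 to 20.2), and IFIT5 of the same family had 32.9 CPM in BFRTV4d and 71.4 CPM in BFRTV8d and was 2.17-fold higher (2.08 to 2.26). IFIT3 and IFIT5 were both higher, but by very different factors, and IFIT2, which was also compared, is not reported here.

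Several effectors whose molecular role is less well known were among the highest ratios. IFI44 and IFI44L, neighbours in the interferon response, were 30.6-fold higher (26.4 to 35.7) and 21-fold higher (19.7 to 22.4), from 1.7 and 9.41 CPM at day 4. EPSTI1 was 26-fold higher (23.9 to 28.2) and reached 145 CPM. XAF1, a regulator of cell death, was 14.2-fold higher (13 to 15.5), and RTP4, a chaperone of membrane receptors, went from 0.824 to 29.8 CPM (36.1-fold higher, 29.2 to 45.2). PLAC8 was 8.35-fold higher (8.13 to 8.59) and reached 450.5 CPM. BST2, or tetherin, which holds budding virus at the cell surface, was 8.87-fold higher (8.38 to 9.39). Lower down the list, SAMD9 was 4.71-fold higher (4.45 to 4.98), the nuclear body gene SP110 3.37-fold higher (3.23 to 3.52) and the secreted LGALS3BP 2.45-fold higher (2.36 to 2.53). SAMHD1, which degrades nucleotides, was the only effector with a lower level in BFRTV8d, 7.89 CPM against 11.6 CPM, less than 2-fold apart, and it is named after its value was seen.

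**Figure D2:**
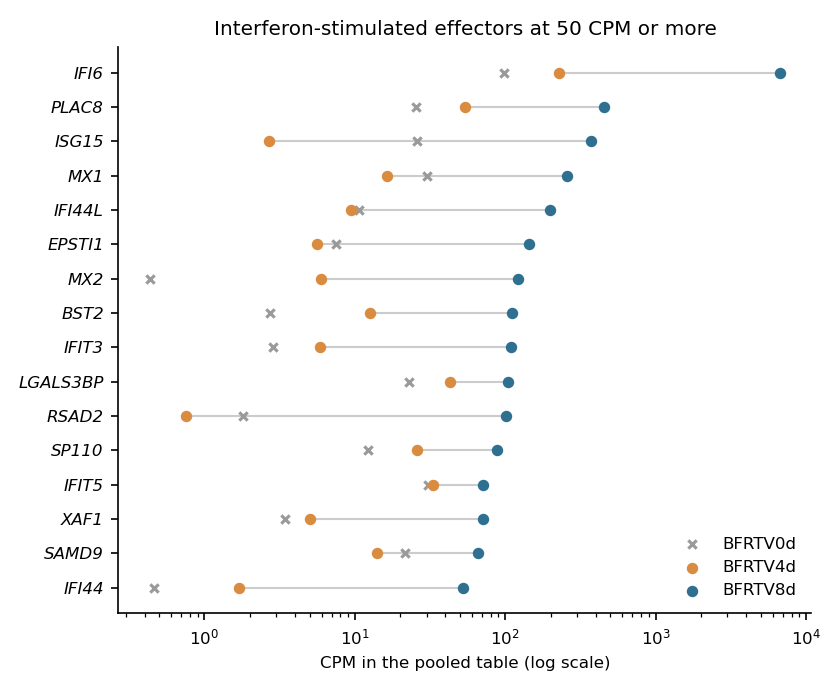
Level (CPM, log axis) of the 16 interferon effectors that reached 50 CPM in either table, in BFRTV0d, BFRTV4d and BFRTV8d, 1 point per table. For each of the 16 genes the day 8 point lies above the day 4 point, from IFIT5 at 2.17-fold to ISG15 at 139-fold.

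The summed effector level was much the same in the 2 main sets of cells at day 4, 559 CPM in keratin-high and 598 CPM in collagen-high cells. Within keratin-high cells the sum was 9486 CPM in BFRTV8d, and the median log2 ratio was 2.92 with 27 of 30 genes higher by 2-fold or more, 18 of them by 4-fold or more. In that comparison, which took 8481 genes, 6.45% of all genes were at least 2-fold and 1.51% at least 4-fold higher, and the median was -0.04. ISG15 had 1.81 and 375 CPM in the keratin-high cells of the 2 tables, and in the clusters of these cells it ranged from 0.144 to 2.26 CPM at day 4 and from 275 to 3503 CPM at day 8. IFI6 ranged over the same clusters from 159.8 to 297 and from 5707 to 9923 CPM, and MX1 from 11.2 to 16 and from 199 to 765 CPM. For these 3 genes the lowest day 8 cluster lay above the highest day 4 cluster. MX2 was found mostly in keratin-high cells at day 4, 10.8 CPM against 0.713 CPM in collagen-high cells, whereas IFI44L was lower there, 4.64 against 14.4 CPM.

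Nearly all barcodes of BFRTV8d held effector UMIs. Free RNA can put UMIs of abundant genes such as IFI6 and SPP1 into droplets of other cells, no set of day 8 cells is known to lack the effectors and so give a background share, and the part of free RNA in the shares of barcodes was not tested. To compare cells at 1 depth, each barcode was thinned at random to 3000 UMIs, and 45 barcodes of BFRTV4d and 8 of BFRTV8d with fewer were left out. At least 5 effector UMIs were found in 4.78% of thinned cells in BFRTV4d and 99% in BFRTV8d (59.6% and 99.96% without thinning), and the median cell had 1 and 25. IFI6 was detected in 46.5% and 99.9% of thinned cells, so the count was repeated without it. Without IFI6, at least 2 effector UMIs were found in 27.2% (26.3 to 28) and 95% (94.6 to 95.4) of cells, against 77.0% and 99.7% unthinned, and the medians were 1 and 7. Cells with no such UMI were 37.7% and 1.22%. ISG15 was detected in 0.620% of thinned cells at day 4 and 43.3% at day 8 (1.97% and 69.2% unthinned), MX1 in 4.81% and 47.8% (14.9% and 78.8%) and RSAD2 in 0.138% and 17.2% (0.304% and 36.6%).

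**Figure D3:**
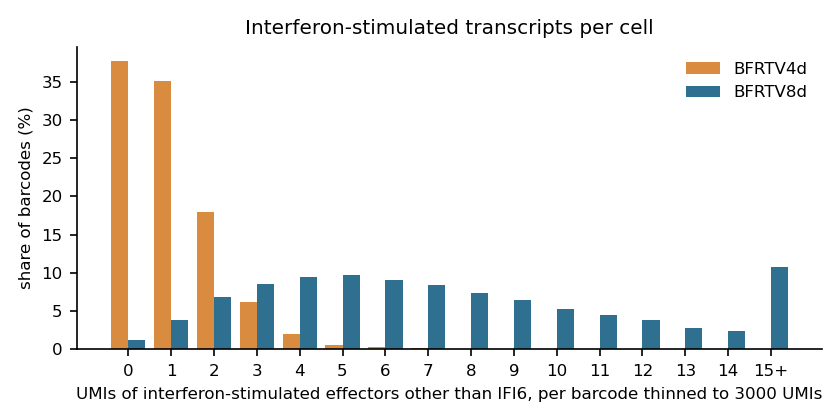
Share of barcodes (%) by number of interferon effector UMIs other than IFI6, after thinning each barcode to 3000 UMIs, for BFRTV4d and BFRTV8d. The day 4 cells have a median of 1 and the day 8 cells a median of 7.

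A small cluster of BFRTV8d, cluster 14 with 85 cells of that table (0.837%), stood apart in these genes, which also define it. Its median thinned cell had 70 effector UMIs against 21 to 28 in the other day 8 clusters. It held 7.37% of the ISG15 UMIs of BFRTV8d, 15.4% of those of RSAD2, 2.31% of those of MX1 and 1.15% of those of IFI6. ISG15 stood at 3503 CPM in it and at 345 CPM in the other day 8 cells, RSAD2 at 2017 and 86.8 CPM, and IFI6 at 9923 and 6682 CPM, so the genes were not in 1 ratio in both. Without cluster 14 the whole-table ratios were 129-fold for ISG15, 116-fold for RSAD2, 15.5-fold for MX1 and 29.2-fold for IFI6.

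Genes that act upstream of the effectors differed less, with a median of 0.49 over 23 genes, 9 of them at least 2-fold higher, 4 at least 4-fold higher and none 2-fold lower. The factors stood out among them. IRF7, the main amplifier of type I interferon production, had 2.26 CPM in BFRTV4d and 43.9 CPM in BFRTV8d (19.4-fold higher, 17.1 to 22.2), and IRF9, a DNA-binding factor downstream of the type I interferon receptor, had 5.83 CPM in BFRTV4d and 61.5 CPM in BFRTV8d (10.6-fold higher, 9.72 to 11.5). IFIH1, a cytoplasmic sensor of double-stranded RNA, was 5.72-fold higher (5.2 to 6.31). Within keratin-high cells IRF7 had 3.59 and 45.3 CPM and IRF9 4.16 and 62.2 CPM.

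Receptors and kinases of the pathway lay closer to 1. IFNGR2, a chain of the type II interferon receptor, was 1.41-fold higher (1.37 to 1.45), and IL10RB, a chain shared with the type III receptor, was 1.12-fold lower (1.07 to 1.16). The kinase JAK1 had 89.3 CPM in BFRTV4d and 83.3 CPM in BFRTV8d, STAT3 47.1 CPM in BFRTV4d and 54 CPM in BFRTV8d and IRF3, a constitutive factor downstream of nucleic acid sensors, 47 CPM in BFRTV4d and 73.8 CPM in BFRTV8d. No interferon ligand reached the limit of 10 CPM. Of the ligands listed, IFNE has a row in the tables, and the other 4 were not analysed here.

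Antigen presentation genes, a downstream branch of the same response, had a median of 0.64 over 10 genes, with 2 at least 2-fold higher and 1 lower. B2M, the light chain of MHC class I, had 1021 CPM in BFRTV4d and 2349 CPM in BFRTV8d (2.3-fold higher, 2.28 to 2.32), and the peptide transporter TAP1 was 2.31-fold higher (2.13 to 2.5). The immunoproteasome subunit PSMB8 was 1.99-fold higher (1.94 to 2.05). CALR, a chaperone of the endoplasmic reticulum that also loads MHC class I, was 2.39-fold lower (2.35 to 2.43). Within keratin-high cells B2M had 928 and 2395 CPM, PSMB8 106 and 153 CPM and the list median was 0.20.

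Fibroblast matrix genes had the lowest median, -2.97 over 27 genes, with 22 at least 2-fold lower, 18 at least 4-fold lower and 1 at least 2-fold higher. Among the fibrillar collagen chains, COL1A1 stood at 524 CPM in BFRTV4d and 38.3 CPM in BFRTV8d (13.7-fold lower, 13.3 to 14.1), COL1A2 was 11.2-fold lower (10.9 to 11.6) and COL3A1 7.86-fold lower (7.69 to 8.03). In BFRTV0d these 3 genes had 3828, 1962 and 1584 CPM, so that each was lower at day 4 and lower again at day 8. The collagen VI chains COL6A1, COL6A2 and COL6A3 were 11.3-fold, 12.6-fold and 8.73-fold lower. COL14A1, which associates with collagen fibrils, was 14.8-fold lower (13.7 to 15.9), although it had been higher at day 4 (109 CPM) than in BFRTV0d (64.3 CPM).

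The small leucine-rich proteoglycans of the matrix, DCN, LUM, FMOD, BGN and PRELP, were 8.84-fold, 8.16-fold, 9.44-fold, 9.53-fold and 10.9-fold lower. The proteoglycan VCAN was 11.4-fold lower (10.4 to 12.4) and the receptor PDGFRA, a marker of fibroblasts, 9.64-fold lower (9.02 to 10.3). Not every gene of the list followed. SPARC was 2.14-fold lower (2.1 to 2.17), the fibronectin gene FN1 2.22-fold lower (2.19 to 2.25) and COL12A1 1.65-fold lower (1.61 to 1.7). THY1 had 85.9 CPM in BFRTV4d and 92.2 CPM in BFRTV8d, and S100A4, a calcium-binding protein that many motile cells express, was 2.07-fold higher (2.06 to 2.09). S100A4 stood at 1966 CPM in the keratin-high and 390.3 CPM in the collagen-high cells of BFRTV4d, the reverse of the collagens.

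The matrix genes lay in the collagen-high cells of BFRTV4d, a set defined by fibroblast markers that include COL1A1 and many other genes of this list. For these genes the contrast between the 2 sets is built in. COL1A1 had 1048 CPM in collagen-high and 19.8 CPM in keratin-high cells, where the 4 clusters ranged from 17.1 to 22.6 CPM. It was detected in 88.2% and 5.44% of thinned cells (98.8% and 16.6% unthinned, at medians of 9343 and 9419.5 UMIs). In the keratin-high cells of BFRTV8d it had 2.38 CPM and was detected in 0.623% of thinned cells (2.22% unthinned, at a median of 8944 UMIs). Free RNA can put collagen UMIs into droplets of other cells, and its part in these low values was not tested. The list median there was -0.93 over 17 genes, beside shares of 6.5% of all genes at least 2-fold and 1.52% at least 4-fold lower, and 8 of the 17 were at least 2-fold lower. With the marker gate in place of clusters the median was -2.08. FN1 had the other direction inside keratin-high cells, with 147 and 231 CPM.

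Contractile genes were lower in BFRTV8d, 14 of 20 by at least 2-fold and 7 by at least 4-fold, with none 2-fold higher and a median of -1.74. Their sum was 6371 CPM in BFRTV0d, 10241 CPM in BFRTV4d and 3744 CPM in BFRTV8d. ACTG2, smooth muscle gamma actin, had 63.6 CPM in BFRTV4d and 1.5 CPM in BFRTV8d and was 42.4-fold lower (36.1 to 50.01). CNN1, the actin-binding calponin, was 14.8-fold lower (14 to 15.7), the tropomyosin TPM2 15-fold lower (14.7 to 15.4) and the actin nucleator LMOD1 22.6-fold lower (17.8 to 29.1). These 4 genes had been higher in BFRTV4d than in BFRTV0d, where they stood at 8.43, 27.3, 233 and 1.09 CPM. ACTA2, alpha smooth muscle actin, was 4.45-fold lower (4.39 to 4.51), TAGLN, an actin cross-linker, 4.8-fold lower (4.72 to 4.88), and the myosin light chain kinase MYLK 2.58-fold lower (2.54 to 2.63).

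The contractile genes also lay mainly in collagen-high cells at day 4, at a sum of 15311 CPM there and 5525 CPM in keratin-high cells. TPM2 had 1712 and 121 CPM in the 2 sets, and CNN1 383 and 12.9 CPM. Within keratin-high cells the median was -0.70, with 5 of 16 genes at least 2-fold lower. TPM1, a tropomyosin of non-muscle cells as well, had 1390.0 and 937 CPM there, the filamin FLNA 403 and 168 CPM and the myosin light chain MYL9 247 and 106 CPM. Among contractile genes with at least 50 CPM, only FHL2 had a higher whole-table level in BFRTV8d, 318 CPM in BFRTV4d and 388 CPM in BFRTV8d, and its direction was the reverse within keratin-high cells (481 and 404 CPM).

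Mesenchymal transcription factors had a median of -2.00 over 11 genes, with 6 at least 2-fold lower, 5 at least 4-fold lower and 2 at least 2-fold higher. PRRX1, a homeobox factor of limb and skin fibroblasts, had 772 CPM in BFRTV4d and 101 CPM in BFRTV8d (7.64-fold lower, 7.49 to 7.8), and PRRX2 was 8.25-fold lower (7.73 to 8.82). The repressors of E-cadherin ZEB1 and ZEB2 were 4.98-fold lower (4.57 to 5.44) and 5.86-fold lower (5.07 to 6.79). SNAI2, a repressor of the same function that basal epithelial cells also use, went the other way and was 2.21-fold higher (2.16 to 2.26), with 117 and 218 CPM in keratin-high cells. OSR2 was 3.03-fold higher (2.86 to 3.2). PRRX1, itself 1 of the markers that define the sets, had 1563 CPM in collagen-high and 35 CPM in keratin-high cells of BFRTV4d. Only 4 of the factors reached 10 CPM within keratin-high cells, where the median was 0.20, but -0.73 by the marker gate and -0.69 without the cycling clusters 6, 9 and 11, so it has no settled sign.

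Among matrix proteases and their inhibitors, with a median of -0.18 over 14 genes, 3 were at least 2-fold higher and 6 lower. MMP2, a gelatinase of fibroblasts, was 10.02-fold lower (9.79 to 10.3) and MMP19 6.09-fold lower (5.18 to 7.2). MMP7, a protease of glandular epithelium, had 1.85 CPM in BFRTV4d and 30.3 CPM in BFRTV8d (16.4-fold higher, 14.2 to 19.1). The plasminogen activators PLAT and PLAU were 11.4-fold higher (11 to 11.7) and 3.3-fold higher (3.2 to 3.4), PLAT from 38.9 to 442 CPM. All 3 were higher within keratin-high cells too, MMP7 with 3.74 and 32.4 CPM, PLAT with 70.8 and 467 CPM and PLAU with 42 and 166 CPM.

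Epithelial junction and adhesion genes were higher, 23 of 28 by at least 2-fold and 6 by at least 4-fold, with none 2-fold lower and a median of 1.57. Claudins, which seal tight junctions, had the highest ratios. CLDN4 stood at 25 CPM in BFRTV4d and 316 CPM in BFRTV8d (12.6-fold higher, 12.1 to 13.1), CLDN7 at 4.19 CPM in BFRTV4d and 37.1 CPM in BFRTV8d (8.86-fold higher, 8.03 to 9.79), CLDN23 was 12.3-fold higher (9.98 to 15.2) and CLDN1 3.85-fold higher (3.73 to 3.97). OVOL1, a factor that represses mesenchymal genes in epithelia, was 7.17-fold higher (6.37 to 8.1). E-cadherin (CDH1) was 2.28-fold higher (2.18 to 2.39) and the adhesion molecule EPCAM 2.33-fold higher (2.26 to 2.39). The splicing regulator ESRP1 was 3.32-fold higher (3.16 to 3.49), RAB25, which recycles membrane to the epithelial surface, 3.67-fold higher (3.57 to 3.78), and the protease inhibitor SPINT2 2.87-fold higher (2.83 to 2.91). The desmosomal genes differed less, with DSP 1.95-fold higher (1.9 to 2), JUP 1.95-fold higher (1.89 to 2) and DSC3 1.28-fold higher (1.24 to 1.32).

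Within keratin-high cells the junction median was 0.74 over 31 genes, with 9 at least 2-fold higher, 3 at least 4-fold higher and none 2-fold lower. Without cluster 5 it was 0.44, with 6 of 32 genes at least 2-fold higher. CLDN4 had 42.6 and 332 CPM in the keratin-high cells of BFRTV4d and BFRTV8d, and the day 4 clusters ranged from 1.71 to 96.2 CPM against 79.2 to 605 CPM at day 8. It was detected in 9.36% and 49% of thinned keratin-high cells (21.8% and 72.5% unthinned) and in 1.92% of collagen-high cells at day 4 (5.67% unthinned). CLDN4 is an epithelial marker that defines these sets, so its contrast between them is built in. CLDN7 had 8.24 and 39.3 CPM and CLDN1 89.5 and 192 CPM. CDH1 had 48.8 and 62.6 CPM, EPCAM 132 and 168 CPM and DSP 166 and 182 CPM, each less than 1.5-fold apart, and DSC3 was lower at day 8 (122 and 87.7 CPM).

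Luminal mammary genes had a median of 1.13 over 21 genes, with 12 at least 2-fold higher, 4 at least 4-fold higher and none 2-fold lower. ELF5, an ETS factor of the milk-forming alveolar lineage, had 4.91 CPM in BFRTV4d and 38.9 CPM in BFRTV8d (7.93-fold higher, 7.24 to 8.7). GATA3, a factor that maintains luminal cells, was 4.33-fold higher (4.2 to 4.46), the ETS factor EHF 3.78-fold higher (3.71 to 3.85) and the surface marker CD24 5.18-fold higher (5.03 to 5.34). AREG, the EGF receptor ligand amphiregulin of the mammary duct, had 43.9 CPM in BFRTV4d and 319.7 CPM in BFRTV8d (7.28-fold higher, 7.06 to 7.51). KRT19 had 1291 CPM in BFRTV4d and 3291 CPM in BFRTV8d, and KRT7 was 1.86-fold higher (1.84 to 1.87). Of the paired simple keratins, KRT8 went against the list and was 1.83-fold lower (1.81 to 1.85), and KRT18 had 100.5 CPM in BFRTV4d and 110.3 CPM in BFRTV8d.

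In keratin-high cells the luminal median was 0.44, with 6 of 21 genes at least 2-fold higher and 1 lower. ELF5 had 8.11 and 41.2 CPM, AREG 83.6 and 338 CPM, GATA3 96.9 and 233 CPM and EHF 240.4 and 513 CPM, all higher at day 8. KRT7 had 1026 and 1039.9 CPM, nearly level. KRT8 had 1209 and 356 CPM and was 3.39-fold lower, and KRT18 199 and 117 CPM, so both simple keratins were lower inside the set of cells that carries them.

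Basal keratin and hemidesmosome genes had a median of 0.55 over 22 genes, with 5 at least 2-fold higher and none lower. The list summed to 3515 CPM in BFRTV0d, 6779 CPM in BFRTV4d and 11593 CPM in BFRTV8d, and KRT14 already had 642 CPM in BFRTV0d. Whether keratin-high cells came from epithelial cells present at day 0 was not tested. KRT14 had 1515 CPM in BFRTV4d and 4659 CPM in BFRTV8d (3.07-fold higher, 3.06 to 3.09), PERP, a desmosomal target of TP63, was 3.07-fold higher (3.03 to 3.1), and TP63 itself, the master factor of basal epithelium, 2.12-fold higher (2.05 to 2.18). KRT5, the partner of KRT14, was 1.28-fold higher (1.27 to 1.28), and COL17A1, a hemidesmosomal collagen, 1.1-fold higher (1.08 to 1.11). Within keratin-high cells the median was -0.22, with no gene at least 2-fold higher and 1 lower, the integrin chain ITGA3 (168 and 75.1 CPM). There KRT14 had 2969 and 4921 CPM and TP63 116 and 139 CPM, while KRT5 had 4124 and 2855 CPM and COL17A1 491 and 301 CPM. The basal genes thus had no common direction in keratin-high cells. The laminin chains LAMA3 and LAMB3 of the hemidesmosome were 1.53-fold and 1.35-fold higher in the whole tables and 1.06-fold and 1.3-fold lower in keratin-high cells.

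Of 26 genes on the milk protein and secretion list, 14 have rows in these tables and 9 were compared. The casein genes CSN1S1, CSN1S2 and CSN2, and LALBA, are among those without a row and were not analysed here. LPO, XDH, PIGR, MUC1 and SLC34A2 stayed under the limit for comparison. The 9 compared genes had a median of 1.86, with 6 at least 2-fold higher, 4 at least 4-fold higher and none 2-fold lower. SPP1, the phosphoprotein osteopontin, which is abundant in milk, made up most of their sum. It stood at 129 CPM in BFRTV0d, 1488 CPM in BFRTV4d and 17305 CPM in BFRTV8d, and was 11.6-fold higher (11.6 to 11.7). CSN3, the kappa-casein that stabilizes casein micelles, had 0.309 CPM in BFRTV4d and 14.5 CPM in BFRTV8d, which rest on 33 and 1501 UMIs, and was 47-fold higher (33.3 to 68.5). LTF, the iron-binding lactoferrin of milk, had 1.07 CPM in BFRTV4d and 30.7 CPM in BFRTV8d (28.8-fold higher, 23.9 to 35), and the membrane mucin MUC15 was 7-fold higher (5.92 to 8.33). PTHLH, the parathyroid hormone-related protein secreted into milk, was 3.64-fold higher (3.47 to 3.81), and PLIN2, which coats lipid droplets, 2.13-fold higher (2.1 to 2.16). MFGE8, a milk fat globule protein that fibroblasts also make, was 1.49-fold lower (1.43 to 1.55).

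Most of these differences were present in keratin-high cells, where the median was 1.36 with 5 of 9 genes higher by 2-fold or more, 4 of them by 4-fold or more. SPP1 had 2776 and 18326 CPM there and ranged from 481 to 7294 CPM over the day 4 clusters and from 4911 to 32205 CPM over the day 8 clusters. It was detected in 73.9% and 99.8% of thinned keratin-high cells (87.1% and 100% unthinned) and in 33.5% of collagen-high cells of BFRTV4d (66.3% unthinned), where the part of free RNA was not tested. CSN3 and LTF were found in a minority of cells. CSN3 was detected in 0.107% and 3.83% of thinned keratin-high cells (0.574% and 9.33% unthinned) and LTF in 0.450% and 6.03% (1.32% and 13.1%). LTF ranged from 3.32 to 90.5 CPM over the keratin-high clusters of BFRTV8d, and CSN3 from 1.85 to 36 CPM. MFGE8 was higher at day 8 within keratin-high cells (22.1 and 33.1 CPM), the reverse of the whole tables.

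Mucosal secretory genes had a median of 2.06 over 8 genes, with 6 at least 2-fold and 4 at least 4-fold higher. The trefoil peptide TFF3, which is secreted with mucus, had 14.1 CPM in BFRTV4d and 114 CPM in BFRTV8d (8.04-fold higher, 7.62 to 8.49). The mucin glycosyltransferase GCNT3 was 11.8-fold higher (10.9 to 12.8), the membrane mucin MUC13 5.94-fold higher (5.61 to 6.3), and AGR2, a disulfide isomerase needed for mucin folding, 5.44-fold higher (5.14 to 5.76). In BFRTV0d AGR2 is not listed, so fewer than 11 cells held it, and the other 3 stood between 0.102 and 0.196 CPM. Within keratin-high cells the median was 1.09 over 9 genes, GCNT3 having 12.8 and 81.4 CPM and TFF3 26.9 and 121 CPM. TFF3 was uneven among the keratin-high clusters of BFRTV8d, from 8.44 to 439 CPM.

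Genes of the cornified envelope and keratinocyte differentiation had a median of 1.22 over 11 genes, with 7 at least 2-fold higher and none lower. IVL, the envelope precursor involucrin, had 9.03 CPM in BFRTV4d and 63.2 CPM in BFRTV8d (7-fold higher, 6.54 to 7.49), KLF4, a factor of the epidermal barrier, was 4.29-fold higher (4.08 to 4.51), and the protease inhibitor CSTA 2.7-fold higher (2.61 to 2.8). S100A8, a chain of the calcium-binding protein calprotectin, was 2.33-fold higher (2.32 to 2.35). Within keratin-high cells the median was 0.33, with 2 genes at least 2-fold higher, IVL at 17.1 and 67.3 CPM and KLF4 at 18.7 and 77.2 CPM.

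**Figure D4:**
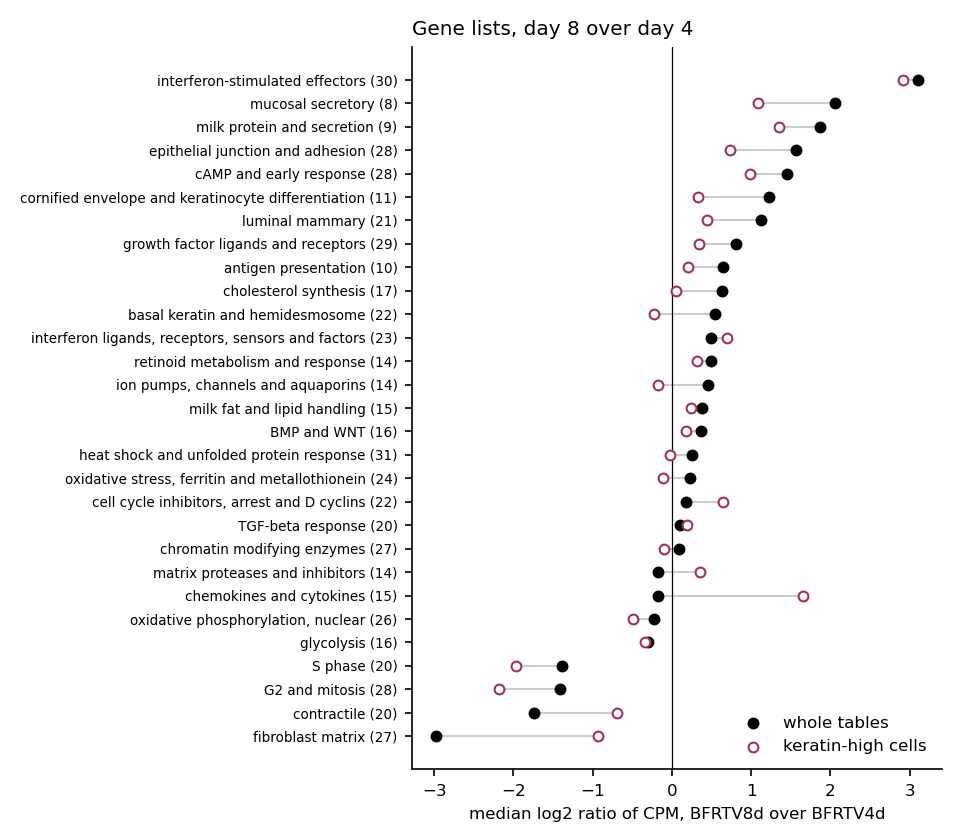
Median log2 ratio of BFRTV8d over BFRTV4d for the 29 gene lists with at least 8 genes compared, in the whole tables and within keratin-high cells. The interferon effectors lie near 3 on both scales, matrix genes at -2.97 and -0.93, and the G2 and mitosis list at -1.42 and -2.19.

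Most cell cycle genes compared were lower in BFRTV8d. In the G2 and mitosis list 23 of 28 genes were at least 2-fold lower, 2 at least 4-fold lower and none 2-fold higher, with a median of -1.42. In the S phase list 13 of 20 were at least 2-fold lower and 7 at least 4-fold lower, with a median of -1.39. MKI67, a nuclear protein of dividing cells, had 37.3 CPM in BFRTV4d and 5.78 CPM in BFRTV8d (6.46-fold lower, 5.93 to 7.05), and CENPE, a kinesin of the kinetochore, was 3.62-fold lower (3.29 to 3.98). RRM2, the ribonucleotide reductase subunit that supplies nucleotides for replication, was 9.43-fold lower (8.39 to 10.6), and the replicative helicase subunits MCM2, MCM3 and MCM5 were 6.95-fold, 4.93-fold and 8.06-fold lower.

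Cycling cells at day 4 lay mostly among the keratin-high cells, in clusters 6 (1286 cells) and 9 (607 cells), and at day 8 in cluster 11 (427 cells). The difference was therefore larger within keratin-high cells, where all 31 genes of the G2 and mitosis list were at least 2-fold and 22 at least 4-fold lower (median -2.19), as were 20 and 12 of 25 S phase genes (median -1.97). MKI67 had 67.3 CPM in keratin-high and 5.1 CPM in collagen-high cells of BFRTV4d, and 6.1 CPM in keratin-high cells of BFRTV8d. At least 5 UMIs of the G2 and mitosis list were found in 31.5% of thinned keratin-high cells at day 4 and 4.75% at day 8 (47.3% and 11.2% unthinned), and over all cells in 17.1% and 4.55% (28.1% and 11% unthinned). For the S phase list the share over all thinned cells was nearly level, 40.8% and 39.5% (68.3% and 88.5% unthinned), with medians of 3 and 4 UMIs. Within keratin-high cells it was 75.9% and 41.3% (96.1% and 90% unthinned). The summed S phase level of the whole tables was 1728 and 1351 CPM. Outside the cycling clusters the S phase median was -1.32 over 20 genes, and the G2 and mitosis median -0.62, with 3 of 8 genes at least 2-fold lower. DNMT1, the maintenance DNA methyltransferase, which is tied to replication, was 2-fold lower (1.91 to 2.09) and had 87 and 28.5 CPM in keratin-high cells.

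Genes of arrest and the D cyclins had a median of 0.18 over 22 genes, close to that of all genes, with 6 at least 2-fold higher and 1 lower. GADD45A, a stress-induced inhibitor of the cycle, had 35.4 CPM in BFRTV4d and 299.9 CPM in BFRTV8d (8.48-fold higher, 8.2 to 8.77), and GDF15, a secreted stress factor, was 5.03-fold higher (4.78 to 5.31). The CDK inhibitor CDKN2B was 4.51-fold higher (4 to 5.1) and CDKN2C 2.94-fold lower (2.78 to 3.1). In keratin-high cells the list median was 0.65, with 8 of 22 genes at least 2-fold higher, GADD45A having 56 and 315 CPM.

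Genes of the cAMP and immediate early response were higher, 19 of 28 by at least 2-fold and 7 by at least 4-fold, with 1 at least 2-fold lower and a median of 1.46. ATF3, a stress-induced repressor, had 32.1 CPM in BFRTV4d and 245 CPM in BFRTV8d (7.64-fold higher, 7.37 to 7.92), the zinc finger factor EGR1 was 5.62-fold higher (5.52 to 5.72), and the phosphatase DUSP1, which ends MAP kinase signals, 4.43-fold higher (4.37 to 4.5). PDE4B, which degrades cAMP, was 2.51-fold lower (2.4 to 2.62), and within keratin-high cells it had 17.4 and 21.7 CPM. The list median in keratin-high cells was 0.98, with 13 of 27 genes at least 2-fold and 7 at least 4-fold higher. EGR1 had 166 and 719 CPM there, ATF3 54.2 and 255 CPM and DUSP1 294 and 1064 CPM.

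In the heat shock and unfolded protein list, with a median of 0.26 over 31 genes, 8 genes were at least 2-fold higher and 3 lower. The genes that were higher include targets of the factor ATF4, which responds to amino acid shortage and unfolded protein. CHAC1, which degrades glutathione, had 2.28 CPM in BFRTV4d and 36 CPM in BFRTV8d (15.8-fold higher, 13.9 to 18.1), TRIB3 was 7.76-fold higher (6.79 to 8.9), DDIT3 5.87-fold higher (5.64 to 6.12) and HERPUD1 4.24-fold higher (4.1 to 4.38). SDF2L1 and CRELD2, which act in protein folding inside the endoplasmic reticulum, were 3-fold lower (2.9 to 3.11) and 2.69-fold lower (2.51 to 2.89). Both directions held within keratin-high cells, CHAC1 having 1.51 and 37.3 CPM, DDIT3 24.5 and 159 CPM, SDF2L1 166 and 42.9 CPM and CRELD2 42.8 and 10.2 CPM, and the list median there was -0.02.

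Growth factor ligands and receptors had a median of 0.81 over 29 genes, with 10 at least 2-fold higher and 6 lower, and 5 and 3 at 4-fold. EDN3, the peptide endothelin 3, had 4.57 CPM in BFRTV4d and 137 CPM in BFRTV8d (29.9-fold higher, 27.3 to 32.8), and NPPC, the C-type natriuretic peptide, 11.2 CPM in BFRTV4d and 243 CPM in BFRTV8d (21.6-fold higher, 20.4 to 22.9). EDN1 was 8.12-fold higher (7.2 to 9.18). In BFRTV0d NPPC had 0.179 CPM, and EDN3 is not listed, so fewer than 11 cells held it. Ligands of fibroblasts were on the other side. IGF1 had 114 CPM in BFRTV4d and 8.82 CPM in BFRTV8d (12.9-fold lower, 12 to 13.8) and FGF7, a fibroblast signal to epithelium, was 6.19-fold lower (5.95 to 6.44), and among the IGF binding proteins IGFBP5 was 4.64-fold lower (4.56 to 4.73) and IGFBP2 2.58-fold lower (2.37 to 2.81).

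EDN3 and NPPC lay in keratin-high cells at day 4, at 8.61 and 22.5 CPM, against 0.267 and 0.468 CPM in collagen-high cells. They had 145 and 258 CPM in the keratin-high cells of BFRTV8d, 16.8-fold and 11.4-fold higher. EDN3 was detected in 2.27% and 32.3% of thinned keratin-high cells (6.4% and 59.1% unthinned) and NPPC in 6.15% and 38% (13.6% and 60.2%). IGF1 was the reverse, with 229 CPM in collagen-high and 3.49 CPM in keratin-high cells at day 4. IGFBP2 was a keratin-high gene at day 4 (36.7 CPM) and had 7.85 CPM in keratin-high cells at day 8.

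Chemokines and cytokines split by cell set. The median was -0.18 over 15 genes in the whole tables, with 5 at least 2-fold higher and 2 lower, and 1.66 over 13 genes within keratin-high cells, with 8 higher and 3 lower. CXCL8, which attracts neutrophils, had 611 CPM in BFRTV4d and 2397 CPM in BFRTV8d (3.93-fold higher, 3.89 to 3.96), CCL20, which attracts cells to mucosal surfaces, was 4.65-fold higher (4.54 to 4.77), IL1A, a cytokine of damaged epithelium, 5.64-fold higher (5.45 to 5.84), and CCL28, a mucosal chemokine of the mammary gland, 5.75-fold higher (5.24 to 6.31). CXCL12, a stromal chemokine, was 5.69-fold lower (5.56 to 5.83), with 943 CPM in collagen-high and 20.1 CPM in keratin-high cells at day 4. CCL17 was 5.4-fold lower (5.01 to 5.82), and it lay in keratin-high cells (87.2 and 8.55 CPM at days 4 and 8). CCL5, which interferon and NF-kappaB signals induce, was 5.2-fold higher (4.66 to 5.81) and had 0.315 and 19.1 CPM in keratin-high cells, where 1 day 8 cluster reached 467 CPM and the lowest stood at 5.56 CPM.

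TGF-beta response genes had no common direction, with a median of 0.10 over 20 genes, 3 at least 2-fold higher and 5 lower. ITGB6, an epithelial integrin that activates TGF-beta, was 4-fold higher (3.78 to 4.23) and TSC22D1 3.52-fold higher (3.45 to 3.6). TGFB1I1, a focal adhesion protein, was 4.89-fold lower (4.45 to 5.37), the decoy receptor BAMBI 3.93-fold lower (3.59 to 4.32), the type II receptor TGFBR2 2.84-fold lower (2.76 to 2.93) and the secreted CTGF 2.22-fold lower (2.17 to 2.28). CTGF had 38.3 and 75.8 CPM in keratin-high cells, the reverse direction. The BMP and WNT list had a median of 0.37 over 16 genes, with 2 genes at least 2-fold higher and 2 lower. WNT7B, an epithelial ligand, was 3.4-fold higher (3.09 to 3.74), BMP7 2.36-fold higher (2.13 to 2.61), MGP, an inhibitor of calcification, 3.2-fold lower (3.11 to 3.28) and WNT5A 2.04-fold lower (1.94 to 2.16). Retinoid genes had a median of 0.49 over 14 genes, with 3 higher and 2 lower. ALDH1A1, which makes retinoic acid, was 2.73-fold higher (2.48 to 3.01), the fatty acid and retinoid carrier FABP5 3.21-fold higher (3.17 to 3.25), the receptor RARB 3.28-fold lower (3.01 to 3.57) and RARRES2 4.52-fold lower (4.09 to 5.01). RARB and RARRES2 lay in collagen-high cells at day 4 (41 and 40.3 CPM) and differed by less than 1.5-fold within keratin-high cells.

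Metabolic lists had medians between -0.30 and 0.64. Cholesterol synthesis had a median of 0.64 over 17 genes, with 3 at least 2-fold higher, among them the sterol oxidase MSMO1 (3.19-fold higher, 3.07 to 3.32) and squalene epoxidase SQLE (2.31-fold higher, 2.2 to 2.42), but 0.05 within keratin-high cells. The milk fat and lipid list had 0.38 over 15 genes, with the acyl-CoA synthetase ACSL1 2.09-fold higher (1.92 to 2.27) and the desaturase FADS2 3.17-fold lower (2.96 to 3.4). Glycolysis had -0.30 over 16 genes, with 1 at least 2-fold higher, the regulator PFKFB3 (2.22-fold higher, 2.1 to 2.35), and 1 lower, the aldolase ALDOC (3.52-fold lower, 3.12 to 3.97), and PKM, the last enzyme of the pathway, was 1.92-fold lower (1.9 to 1.94). Nuclear genes of oxidative phosphorylation had -0.23 over 26 genes and -0.49 within keratin-high cells, with 1 and 2 genes at least 2-fold lower. ATP5G1, a subunit of the ATP synthase ring, was 2.18-fold lower (2.15 to 2.22), and SDHD, a membrane anchor of complex II, 1.94-fold higher (1.88 to 2).

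Ferritin heavy chain had the largest difference in CPM of any gene compared. FTH1 stood at 19243 CPM in BFRTV0d, 97406 CPM in BFRTV4d and 22698 CPM in BFRTV8d, and was 4.29-fold lower (4.29 to 4.3). At day 4 it had 176987 CPM in collagen-high and 18034 CPM in keratin-high cells, and it had 14709.5 CPM in the keratin-high cells of BFRTV8d. A gene at such a level takes part of the scale from all others in its table, and totals without the 10 most abundant genes left 153 genes at least 4-fold higher and 244 lower. The light chain FTL was 1.23-fold lower (1.23 to 1.24). Elsewhere in the oxidative stress list, with a median of 0.23 over 24 genes, 3 at least 2-fold higher and 3 lower, the epithelial glutathione peroxidase GPX2 had 217 CPM in BFRTV4d and 1122 CPM in BFRTV8d (5.17-fold higher, 5.1 to 5.24), the plasma form GPX3 was 3.32-fold lower (3.25 to 3.4), the thioredoxin inhibitor TXNIP 4.14-fold higher (4.04 to 4.25) and the metallothionein MT3 9.14-fold lower (8.27 to 10.1). GPX2 lay in keratin-high cells and had 422 and 1184 CPM there, and GPX3 in collagen-high cells (600.2 CPM at day 4).

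Ion pumps, channels and aquaporins had a median of 0.45 over 14 genes, with 5 at least 2-fold higher and 1 lower. ATP6V1B1, a proton pump subunit of acid-secreting epithelial cells, had 8.98 CPM in BFRTV4d and 177 CPM in BFRTV8d (19.7-fold higher, 18.4 to 21), and is not listed in BFRTV0d. The water and glycerol channel AQP3 was 11.1-fold higher (9.43 to 13.1) and SCNN1B, a subunit of the epithelial sodium channel, 7.09-fold higher (6.28 to 8.04). S100G, the calcium carrier calbindin D9k, had 199 CPM in BFRTV4d and 14.3 CPM in BFRTV8d (13.9-fold lower, 13.2 to 14.6) and lay in collagen-high cells at day 4, at 374 CPM against 21.4 CPM in keratin-high cells. Of 17 genes on the pluripotency list, 7 have rows and 5 were compared, SOX2, KLF4, MYC, SOX9 and SOX4. POU5F1, NANOG and LIN28A are among those without a row, and SALL4 and SOX11 stayed under 10 CPM. All 5 compared genes were at least 2-fold higher, beside 10.7% of all genes, and KLF4 and SOX9 also stand on other lists here. SOX2, a factor of stem cells and of several surface epithelia, had 2.02 CPM in BFRTV4d and 21.2 CPM in BFRTV8d (10.5-fold higher, 9.1 to 12.1), MYC was 3.37-fold higher (3.29 to 3.45) and SOX4 3.31-fold higher (3.28 to 3.34). SOX4 had 455 and 1566 CPM in keratin-high cells, and SOX2 was detected in 1.29% and 6.23% of them after thinning (3.57% and 16.6% unthinned). Chromatin modifying enzymes had a median of 0.08 over 27 genes, with 1 at least 2-fold higher, HDAC11 (2.37-fold higher, 2.16 to 2.6), and none lower. Of the HOX genes only HOXA5 reached 10 CPM (5.5 CPM in BFRTV4d and 10.5 CPM in BFRTV8d).

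Several genes outside the lists were among those with the largest differences in CPM. S100A2, a calcium-binding protein of basal epithelium, had 8657 CPM in BFRTV4d and 19427 CPM in BFRTV8d (2.24-fold higher, 2.24 to 2.25), S100A14 was 2.72-fold higher (2.7 to 2.74) and TPT1 1.67-fold higher (1.66 to 1.67). S100A2 differed less within keratin-high cells (16743 and 20497 CPM), and it had 3276 CPM in BFRTV0d. SAT1, which breaks down polyamines, had 1849 CPM in BFRTV4d and 3379 CPM in BFRTV8d, and within keratin-high cells 568 and 3335 CPM, a larger difference, and the collagen-high cells of BFRTV4d stood at 3282 CPM. Among the largest differences downward were the actin-binding peptides TMSB4X (1.55-fold lower, 1.55 to 1.55) and TMSB10 (1.29-fold lower, 1.29 to 1.29), the intermediate filament gene VIM of the matrix list (3.47-fold lower, 3.45 to 3.49), the lectin LGALS1 (2.75-fold lower, 2.73 to 2.77), the actin-binding PFN1 (2.04-fold lower, 2.03 to 2.06) and the matrix protein THBS1 (3.78-fold lower, 3.74 to 3.83). VIM had 2112 and 909 CPM within keratin-high cells and LGALS1 2206 and 808 CPM, so these 2 were lower there as well, whereas THBS1 had 252 and 302 CPM. HS3ST1, a heparan sulfate sulfotransferase, was 16.9-fold higher (15.3 to 18.8), the hyaluronan-degrading CEMIP 11-fold lower (10.4 to 11.6), NEXN, an actin-binding protein, 11.2-fold lower (10.2 to 12.3) and the basement membrane protein HMCN1 10.4-fold lower (9.71 to 11).

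The 2 views of the comparison, whole tables and keratin-high cells, can be set side by side. All 191 genes that were at least 4-fold higher in the whole tables were at least 2-fold higher within keratin-high cells, and 105 were at least 4-fold higher there. Keratin-high cells were 46.1% of barcodes in BFRTV4d and 94.9% in BFRTV8d. These shares alone bring nearly any gene 4-fold higher in the whole tables to about 2-fold or more within keratin-high cells. That all 191 reached 2-fold was therefore largely fixed in advance and is not separate support. Of the 191, 115 had a level in keratin-high cells at least 5-fold above that in collagen-high cells at day 4, and 2 were the reverse. Of the 213 genes at least 4-fold lower, 143 were at least 2-fold lower within keratin-high cells, 77 at least 4-fold lower, and 70 under 2-fold or in the other direction. In collagen-high cells at day 4, 171 of the 213 were at least 5-fold above keratin-high cells, and 17 were the reverse. The share of all compared genes that lay 5-fold apart between the 2 sets was not computed, so these counts have no background beside them. Collagen-high cells were 44.6% of barcodes in BFRTV4d and 0.453% in BFRTV8d, so genes confined to them are bound to be among the lower ones. Within keratin-high cells 128 genes were at least 4-fold higher and 129 lower, and without cluster 5 these counts were 116 and 174. Without the cycling clusters 6, 9 and 11, 104 were higher and 56 lower.

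**Figure D5:**
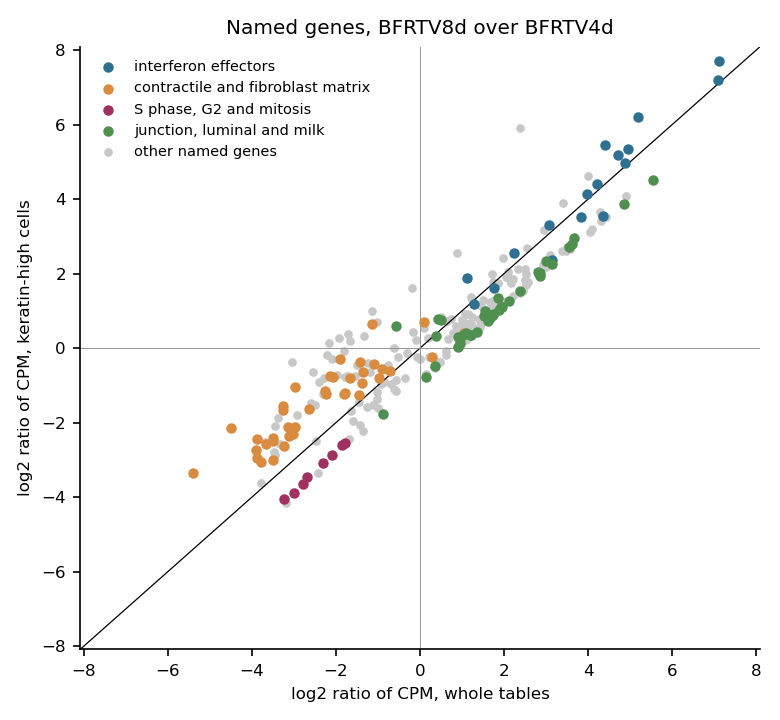
Log2 ratio of BFRTV8d over BFRTV4d for the 264 named genes, in the whole tables (x axis) and within keratin-high cells (y axis), 1 point per gene. Of the 264 genes, 239 have the same sign in both, and genes of collagen-high cells lie nearer to 0 on the y axis than on the x axis.

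Summed over the whole tables, markers of cell types other than fibroblasts and epithelium were low. The sums in BFRTV4d and BFRTV8d were 47.1 and 15.3 CPM for the endothelial, 33 and 34.3 CPM for the immune, 120 and 113 CPM for the pericyte, 213 and 111 CPM for the neuronal, 49.2 and 50.4 CPM for the Schwann cell and melanocyte, 7.19 and 14.4 CPM for the adipocyte, 187 and 438 CPM for the chondrocyte and 5.41 and 4.26 CPM for the erythroid markers, and between 0 and 4 genes of each list reached 10 CPM. The higher members were EGFL7 (36.5 CPM in BFRTV4d and 11.7 CPM in BFRTV8d) among endothelial, CD14 (19.9 CPM in BFRTV4d and 21.4 CPM in BFRTV8d) among immune, NOTCH3 (60.9 CPM in BFRTV4d and 61 CPM in BFRTV8d) among pericyte and STMN2 (169 CPM in BFRTV4d and 51.9 CPM in BFRTV8d) among neuronal markers. The neuronal sum was uneven over the clusters, at 636 CPM in cluster 5 and 600 CPM in cluster 9, both keratin-high at day 4, and from 53 to 372 CPM in the others. SOX9, listed with cartilage but also a factor of glandular epithelium, was 3.27-fold higher (3.21 to 3.34) and lay in keratin-high cells at day 4 (235 against 13 CPM).

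The labelled identity of BFRTV8d as an induced mammary epithelial cell can be set against the levels in the naturally derived mammary epithelial cells (GMECs) of the same series, from a table made with other barcode limits and with ribosomal protein genes listed, so table making and group cannot be told apart there. The genes given here were picked, and the lists as wholes were not compared with GMECs. SPP1 had 17305 CPM in BFRTV8d and 4420.4 CPM in GMECs, KRT19 3291 and 5478 CPM, and ELF5 38.9 and 0.171 CPM. Other luminal and milk genes were lower in BFRTV8d than in GMECs, MUC1 at 6.77 and 308 CPM, PIGR at 0.987 and 94.4 CPM and ELF3 at 6.24 and 18.6 CPM. The basal keratin KRT14 had 4659 and 14.1 CPM. LTF had 30.7 and 0.207 CPM, and CSN3, at 14.5 CPM in BFRTV8d, is not listed in GMECs, where a listed gene was found in at least 6 cells. The interferon gene IFI6 had 6707 and 69.6 CPM and ISG15 369.98 and 15.9 CPM, and in the passaged day 8 cells (CiMECs) they had 961 and 33 CPM.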

How the data were processed

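Single-cell libraries of the 10x Genomics 3′ kit were measured in 3 BFRTV4d and 2 BFRTV8d samples, which the authors deposited as 1 pooled table per group. Per the file headers, values are raw UMI counts per gene and barcode, with no normalization by the authors. FastQC 0.10.1 and Cell Ranger are named in the submitters' processing notes. The version of Cell Ranger is not given in the sources used here, nor are the genome build and annotation. Mitochondrial and ribosomal protein genes have no row in these 2 tables, each barcode had at least 1951 UMIs and each listed gene was found in at least 11 cells.

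Counts were summed per gene and scaled to CPM with Python 3.11.15, pandas 2.3.3 and numpy 2.4.6. A ratio has an exact 95% conditional binomial interval and a share an exact Clopper-Pearson interval (scipy 1.17.1). These cover counting error only. With 103337253 or more UMIs per table they are narrow, and they leave out the spread between cultures, which 1 table per group cannot show. Cells of both tables were clustered with scanpy 1.11.5 and leidenalg 0.10.2 (2000 variable genes, 30 components, 15 neighbours, resolution 1). A cluster was keratin-high or collagen-high if its own marker sum was at least 30% of that of the highest cluster and the other marker sum at most 10%. These limits, and the use of the BFRTV4d doublet score limit of 0.250 for both tables, were chosen after the values were seen. Doublets stayed in, and leaving them out was an alternative.

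The 40 gene lists, the compared genes and the rule for named genes were chosen with earlier results of these data known. Named genes are the 15 highest and 15 lowest ratios (genes that have a symbol and reached 50 CPM), the 10 largest CPM differences each way, up to 4 members of each list with the largest ratio, and any member at least 2-fold against its list's median. All members with at least 50 CPM of both interferon lists and of the junction, luminal, basal, milk protein, contractile and fibroblast matrix lists were added. Of 8469 compared genes, 8362 have a symbol in RefSeq (ARS1.2, used for names only) and 646 only a LOC number. The ratio script was tested on simulated counts. Alternatives were TMM factors (edgeR 4.0.16), median-of-ratios factors, totals without the 10 most abundant genes, minimums of 1 and 50 CPM, means over barcodes, no doublets, barcodes with at least 5000 UMIs, resolutions of 0.5 and 2, and a gate on marker UMIs. Leaving out clusters 5, 14, or 6, 9 and 11 was added after seeing the data. The tables of BFRTV0d, CiMECs and GMECs were used for levels only. Some named genes are not reported here.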

Additional observations from a re-analysis of the deposited data

How the results depend on the processing

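With 191 genes at least 4-fold higher and 213 lower in the whole tables, a minimum of 1 CPM gave 378 and 494, and a minimum of 50 CPM gave 94 and 70, so that 57.3% of these genes were higher against 47.3%. The genes compared were then 13162 and 3111 in place of 8469, and the cause of the other balance of directions was not tested. The other 6 alternatives, scalings and barcode choices, gave 153 to 201 higher and 214 to 244 lower. The keratin-high share of BFRTV4d, 46.1%, was 51.5% with the marker gate, 47.9% without barcodes over the doublet limit and 35.2% without cluster 5, and that of BFRTV8d, 94.9%, was 96.3% with the gate. Cells left out were taken from the total as well. The fibroblast marker sum of cluster 5 was 9.58% of that of the highest cluster, just under the limit of 10%. Within keratin-high cells, 128 genes higher and 129 lower became 65 and 31 at a minimum of 50 CPM, and 56 were lower without clusters 6, 9 and 11. The ratios of the 264 named genes all lay within 1.5-fold of the value given under means over barcodes, without barcodes over the doublet limit and with barcodes of at least 5000 UMIs. The CPM minimums cannot change a ratio, and the scalings shift all ratios alike. Of 188 list medians under 5 alternatives, 176 moved by less than 0.5 without crossing 1 in size, 12 moved further, and no median of at least 1 in size took the other sign. In all, 15 lists had a median of at least 1 in size, against 14 at a minimum of 50 CPM. No paired analysis was possible because each group is 1 pooled table whose columns carry no sample or replicate number, and for the same reason no replicate could be left out. Counting depth gives narrow intervals for genes over 10 CPM, and the lack of separable replicates limits every comparison.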
